A study of Mus musculus with 9 samples.

Results

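Scavenger receptors are cell-surface proteins that take up altered or unwanted molecules, and 8 genes named for such a role were followed here in phagocytes of the mouse peritoneal wall. They were picked by symbol: Colec12, Msr1, Marco, Cd163, Cd36, Scarb1, Cd5l and Cd93. All 8 have a row in the table of 28764 gene symbols. Cells came from 3 mice carrying both reporter alleles, Cx3cr1gfp/+ and Ccr2rfp/+ (an F1 cross), so every population compared has the same genotype. Each mouse had received 50 µg of dextran-Cascade Blue into a vein a day earlier and was perfused with saline before the tissue was taken. CD11b+ Ly6G- cells were sorted into 3 populations, with 3 libraries each (sort labels 1, 2A and 2B).

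Double-negative cells expressed neither reporter, lacked surface MHC class II and had taken up dextran, and the labels call them the majority of sessile resident macrophages (85 to 90% of the gate). CCR2-RFP cells (10 to 15%) carried the red reporter and MHC class II and are labelled migratory tissue monocytes. CX3CR1-GFP cells (0.5 to 1.5%) carried the green reporter and MHC class II and are labelled sessile resident macrophages. The labels name dextran uptake, itself a form of scavenging, as a gate for the double-negative cells alone, and its part in the receptor levels was not tested. Neither age nor sex of the mice is stated in the labels.

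Macrophages use scavenger receptors to clear oxidised lipoproteins, haemoglobin, dying cells and microbes from tissue. Class A receptors (Msr1, Marco and the related Colec12) are membrane proteins with a collagen-like stalk. Class B receptors (Cd36 and Scarb1) cross the membrane at both ends and bind lipoproteins and lipids. Cd163 and Cd5l are built from scavenger receptor cysteine-rich domains, and Cd93 is a lectin-like receptor once proposed to bind complement C1q. Resident tissue macrophages are known for high levels of several of these receptors, and Cd163 is used as one of their markers.

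The values are TPM (a level per transcript length, scaled to a fixed sum per library), so they can be set side by side between genes. Differences are given in log2(TPM + 1), which understates the change of genes near or below 1 TPM. Summed over the listed symbols a library reached 278579 to 382828 TPM. Sequencing depth is unknown because TPM keeps no read counts. Populations follow the sample titles. The description field names another population for 6 of the 9 samples, while the cell type field matches the title in all 9. Ccr2 was 107 ± 10.4 TPM (SD, n = 3) in libraries titled CCR2-RFP against 2.80 ± 1.60 in double-negative and 5.33 ± 1.22 in those titled CX3CR1-GFP. Cx3cr1 was 9.02 ± 6.52 TPM in libraries titled CX3CR1-GFP and was listed at 0 in the other 6. With 3 sorted samples per population, the p-values below measure the spread between these samples. In sorted bulk RNA, fewer cells of a type and less RNA per cell cannot be told apart.

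Cd36 dominated the group, with Cd163 next, and both were lowest in CCR2-RFP cells. The 8 genes together summed to 713 to 889 TPM in double-negative, 500 to 565 in CX3CR1-GFP and 124 to 161 in CCR2-RFP libraries, with no overlap between populations in TPM. As a share of the TPM summed over the listed symbols, they made up 0.2 to 0.274%, 0.166 to 0.203% and 0.0348 to 0.0438% in that order. By that share, double-negative and CX3CR1-GFP libraries overlapped, and CCR2-RFP libraries stayed below both. Cd36 made up 64.7% ± 3.83 (SD, n = 3) of that sum in double-negative, 53.0% ± 5.21 in CX3CR1-GFP and 56.8% ± 10.1 in CCR2-RFP cells. Cd93 made up 11.4% ± 1.47 of the sum in CX3CR1-GFP cells but 2.25% ± 0.570 in double-negative and 1.40% ± 0.923 in CCR2-RFP cells. Ranked by TPM within a library, Cd36 stood between 36 and 52 among all symbols in double-negative cells, and Cd163 between 147 and 164. Marco, Cd5l and Scarb1 stayed at 3.26 TPM or less in every library.

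**Figure D1:**
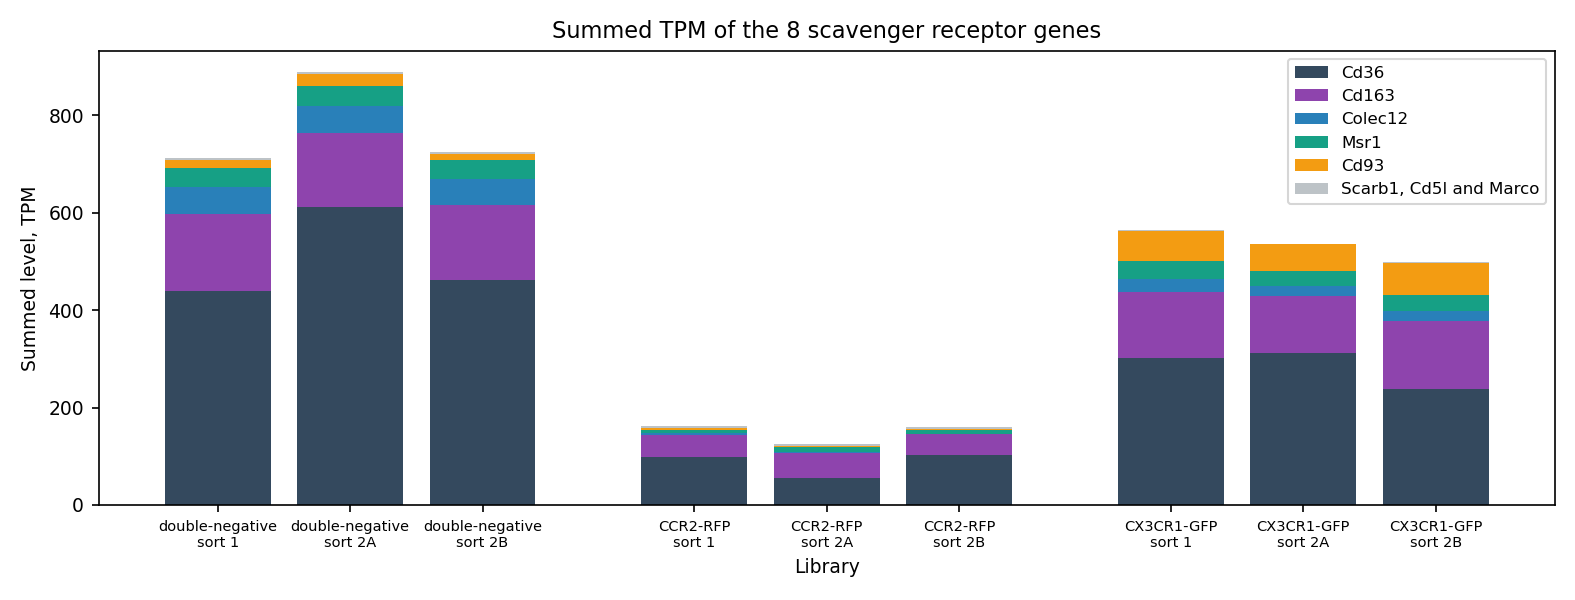
Summed level of the 8 scavenger receptor genes in each of the 9 libraries, in TPM on a linear vertical axis from 0, with 1 stacked bar per library and colours for genes. Bars reach 713 to 889 TPM in double-negative, 124 to 161 in CCR2-RFP and 500 to 565 in CX3CR1-GFP libraries, and Cd36 is the tallest segment in each.

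Filtering kept genes at 1 TPM or more in at least 3 libraries, which left 10136 genes and 7 of the 8 members. Colec12, Msr1, Cd163, Cd36 and Scarb1 reached 1 TPM in all 9 libraries, Cd93 in 8, Cd5l in 3 and Marco in 1. In CCR2-RFP against double-negative cells, 5 of the 7 tested members were lower, none was higher and 2 did not pass (limma, adjusted p below 0.05 over all genes). Among all genes tested, 24.8% were called in this comparison, 14.9% higher and 9.88% lower. The median difference over the 7 members was -2.11, against 0.0858 over all genes. In CX3CR1-GFP against CCR2-RFP cells, which shares the CCR2-RFP libraries, the same 5 members were higher and 2 did not pass, where 26.3% of all genes were called, 8.96% higher and 17.3% lower. Their median was 1.76, against -0.108 over all genes. In CX3CR1-GFP against double-negative cells, 1 was higher (Cd93) and 1 was lower (Colec12), where 2.77% of all genes were called, 1.16% higher and 1.61% lower. The median was -0.24 there, against -0.0331 over all genes. The 5 members lower in CCR2-RFP cells than in both other populations belong to 6.31% of all genes called so. Cd93, highest in CX3CR1-GFP and lowest in CCR2-RFP cells with all 3 differences called, had an order found in 0.0888% of all genes. The order of Colec12, highest in double-negative cells, was found in 0.306%. Both orders were read off these genes themselves. For each gene, the CX3CR1-GFP against double-negative call in that order was lost under 7 of 20 alternatives.

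The balance of calls over all genes moved with scaling, but the members' calls did not. Rescaling TPM without mitochondrial, ribosomal and Siglece rows gave 994 higher and 1252 lower genes in CCR2-RFP against double-negative cells, where the deposited values gave 1512 and 1001. In CX3CR1-GFP against CCR2-RFP cells it gave 1422 higher and 975 lower, where the deposited values gave 908 and 1758. In CX3CR1-GFP against double-negative cells it gave 155 higher and 126 lower, where the deposited values gave 118 and 163. The median of all genes became -0.0737, 0.133 and 0.0431 in those comparisons. Median-of-ratios scaling and quantile normalization were applied as well. Over these 4 scalings, the deposited values included, Colec12 in CCR2-RFP against double-negative cells ranged from -4.37 to -4.22. Cd163 ranged from -1.95 to -1.71 and Cd36 from -2.81 to -2.58.

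**Figure D2:**
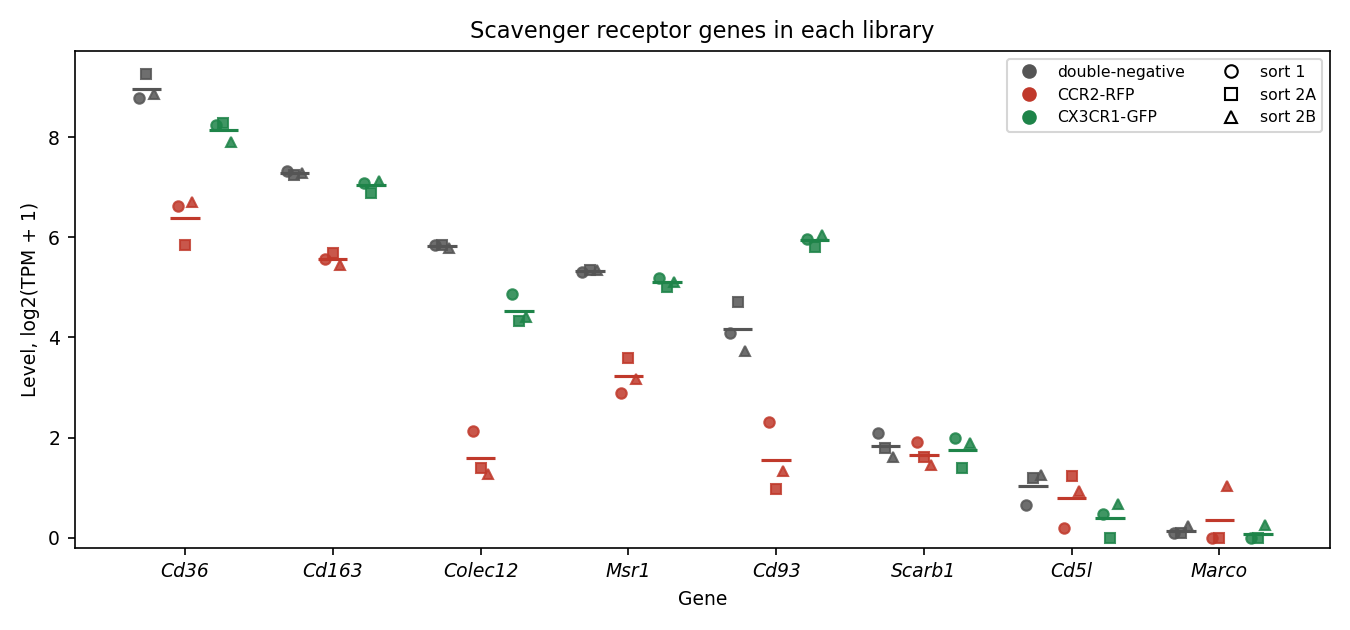
Level of each scavenger receptor gene in each library, the vertical axis being log2(TPM + 1), with colours for the 3 populations, marker shapes for the 3 sort labels and horizontal lines at population means. CCR2-RFP points lie below both other populations for Cd36, Cd163, Colec12, Msr1 and Cd93, and CX3CR1-GFP points are the highest for Cd93.

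Among the class A receptors, Colec12 showed the widest fall, with a stepwise order across populations. Its product, a collectin with a carbohydrate-binding head, takes up oxidised lipoprotein and sugar-bearing particles. Colec12 stood at 56.5, 56.5 and 54.0 TPM in double-negative sorts 1, 2A and 2B, at 28.0, 19.2 and 20.1 TPM in the CX3CR1-GFP sorts and at 3.38, 1.64 and 1.43 TPM in the CCR2-RFP sorts. The 3 populations did not overlap, and the SD over the double-negative libraries was 2.62% of their mean. In CCR2-RFP against double-negative cells Colec12 fell by 4.22 on the log2 scale (SE 0.235, adjusted p = 2.83e-06), and the means differed 25.9-fold. CX3CR1-GFP cells had 2.93 more than CCR2-RFP cells (SE 0.235, adjusted p = 1.90e-05).

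Against double-negative cells, Colec12 in CX3CR1-GFP cells fell by 1.29 (SE 0.235, 95% interval -1.81 to -0.77, adjusted p = 0.0175), 2.48-fold between means. Within each sort the CX3CR1-GFP library held 0.340 to 0.495 times the double-negative level. This call was lost when any 1 double-negative library was left out (adjusted p = 0.0646 to 0.0739), CX3CR1-GFP 2A (0.0591) or CX3CR1-GFP 2B (0.0513), and without a filter on low values (0.0622). The estimate stayed between -1.46 and -1.16.

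Msr1, the founding class A receptor, which binds acetylated and oxidised low-density lipoprotein, separated CCR2-RFP cells from both other populations. It stood at 38.8, 39.8 and 39.6 TPM in double-negative sorts 1, 2A and 2B, at 35.7, 31.4 and 33.5 TPM in the CX3CR1-GFP sorts and at 6.41, 11.1 and 8.06 TPM in the CCR2-RFP sorts. CCR2-RFP libraries lay far below the rest, and the highest of them was below the lowest CX3CR1-GFP library. Msr1 fell by 2.11 in CCR2-RFP against double-negative cells (SE 0.180, adjusted p = 2.09e-05), 4.62-fold between means. It was 1.89 higher in CX3CR1-GFP than in CCR2-RFP cells (SE 0.180, adjusted p = 4.69e-05). Between CX3CR1-GFP and double-negative cells the difference was -0.23 (95% interval -0.629 to 0.174, adjusted p = 0.617). It ranged from -0.227 to -0.112 over the 4 scalings. In deposited TPM the 3 CX3CR1-GFP libraries were all below the 3 double-negative ones.

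Marco, a class A receptor for bacteria that marks subsets of macrophages in spleen and body cavities, was close to the bottom of the range. It was 0.0633, 0.0748 and 0.184 TPM in double-negative libraries, and 0.189 TPM in CX3CR1-GFP 2B. CCR2-RFP 2B gave the one value above 1 TPM, at 1.05, and Marco was listed at 0 in the other 4 libraries. It was too low to test in any comparison.

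Cd163, the macrophage receptor for haemoglobin bound to haptoglobin, was high in every library and lowest in CCR2-RFP cells. Sorts 1, 2A and 2B gave 158, 150.4 and 154 TPM for double-negative, 136, 118 and 139 TPM for CX3CR1-GFP and 46.7, 50.7 and 42.4 TPM for CCR2-RFP cells. No CCR2-RFP library reached the level of any other library. The fall against double-negative cells was 1.71 on the log2 scale (SE 0.127, adjusted p = 8.78e-06), 3.31-fold between means, and CX3CR1-GFP cells were 1.47 above CCR2-RFP cells (SE 0.127, adjusted p = 2.65e-05). Between CX3CR1-GFP and double-negative cells the difference was -0.24 (95% interval -0.524 to 0.0395, adjusted p = 0.41).

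Cd36, which binds oxidised lipoprotein, long-chain fatty acids and thrombospondin, was the most abundant member in all 9 libraries. The double-negative libraries of sorts 1, 2A and 2B held 439, 613 and 461 TPM, the CX3CR1-GFP ones 301, 312 and 238 TPM and the CCR2-RFP ones 98.0, 56.3 and 103 TPM. The populations did not overlap, and sort 2A had both the highest double-negative and the lowest CCR2-RFP value. Against double-negative cells Cd36 in CCR2-RFP cells fell by 2.58 (SE 0.235, adjusted p = 2.90e-05), 5.89-fold between means. It was 1.76 higher in CX3CR1-GFP than in CCR2-RFP cells (SE 0.235, adjusted p = 0.000396). Against double-negative cells the CX3CR1-GFP level was 0.563 times as high, a difference of -0.82 (95% interval -1.34 to -0.298) that did not pass (adjusted p = 0.109). It passed only without CCR2-RFP 2A (adjusted p = 0.0391), over a range of 0.0391 to 0.298 among 20 alternatives.

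Cd163 and Cd36 were the abundant members that fell together, and their promoter windows are shown for that reason, 250 bases before to 50 after the RefSeq start (GRCm38.p6, 5′ to 3′ on the gene's strand). Letter strings searched on both strands were a MAF core site with the letters TGCTGA, a PU.1 core spelled GAGGAA, a nuclear receptor core spelled AGGTCA and a TATA box spelled TATAAA, and capitals mark matches. Windows were searched for 4 of the 8 members, Cd163, Cd36, Marco and Cd5l. The Cd36 window, chr5:17835847-17836146 on the minus strand, lies inside the annotated span of the gene, which has several starts. The Cd163 window is chr6:124304401-124304700 on the plus strand.
Cd163: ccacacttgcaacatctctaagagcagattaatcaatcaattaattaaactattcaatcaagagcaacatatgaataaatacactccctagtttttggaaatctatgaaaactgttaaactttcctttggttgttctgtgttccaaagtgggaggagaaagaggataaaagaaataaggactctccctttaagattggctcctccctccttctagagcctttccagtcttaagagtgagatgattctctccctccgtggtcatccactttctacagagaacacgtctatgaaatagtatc
Cd36: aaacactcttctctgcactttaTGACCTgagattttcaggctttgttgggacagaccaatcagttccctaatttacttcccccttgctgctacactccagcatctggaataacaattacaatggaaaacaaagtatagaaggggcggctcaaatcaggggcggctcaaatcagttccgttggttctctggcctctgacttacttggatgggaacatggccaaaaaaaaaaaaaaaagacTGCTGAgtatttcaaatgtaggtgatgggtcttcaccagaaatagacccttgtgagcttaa
The Cd36 window held the nuclear receptor core on the opposite strand from position -228 and the MAF core from position -11, counted backwards from the start. The Cd163 window held none of the 4 strings. Over 32851 windows of the same length, the MAF core was found in 19.5%, the PU.1 core in 28.3%, the nuclear receptor core in 16.3% and the TATA box in 13.6%. Marco, which was barely expressed, had the PU.1 core from position -146, and Cd5l had it on the opposite strand from -66, with the MAF core on either strand from -54 and -46. The matches did not overlap each other. They describe letters in these windows, and binding was not measured.

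Scarb1, the class B receptor through which cells take cholesteryl ester from high-density lipoprotein, was low and alike in level across populations. Double-negative sorts 1, 2A and 2B held 3.26, 2.46 and 2.06 TPM, CCR2-RFP sorts 2.76, 2.06 and 1.73 TPM and CX3CR1-GFP sorts 2.99, 1.62 and 2.72 TPM, and all 3 populations overlapped. The difference was -0.18 in CCR2-RFP against double-negative cells (95% interval -0.703 to 0.353, adjusted p = 0.654). It was -0.07 in CX3CR1-GFP against double-negative cells (95% interval -0.598 to 0.458, adjusted p = 0.927). In double-negative cells the class B pair stood far apart in mean level, Cd36 at 504 ± 94.6 TPM and Scarb1 at 2.59 ± 0.611 TPM.

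Cd5l, a secreted cysteine-rich protein of macrophages that binds lipids and is abundant in large macrophages of the peritoneal cavity, was near 1 TPM or below. Double-negative sorts 1, 2A and 2B held 0.570, 1.29 and 1.37 TPM, CCR2-RFP sorts 0.150, 1.37 and 0.917 TPM and CX3CR1-GFP sorts 0.392, 0 and 0.604 TPM. All 3 populations overlapped. The difference from double-negative cells was -0.24 in CCR2-RFP (95% interval -0.92 to 0.449, adjusted p = 0.64) and -0.64 in CX3CR1-GFP cells (95% interval -1.33 to 0.04, adjusted p = 0.359), so neither passed. Markers of large cavity macrophages, 9 genes, summed to 9.49 to 32.8 TPM in CX3CR1-GFP libraries. The sums were 11.7 to 55.6 TPM for CCR2-RFP and 43.4 to 69.7 TPM for double-negative libraries. Among the 9, Gata6, the factor that defines these cells, was at most 0.523 TPM in any library. Timd4, shared by cavity and resident tissue macrophages, reached 25.4 ± 1.26 TPM in double-negative, 9.16 ± 2.06 in CX3CR1-GFP and 2.91 ± 1.54 in CCR2-RFP cells. Within sort 2A, Prg4 was at 0.173 TPM for CX3CR1-GFP, 30.3 for CCR2-RFP and 26.5 for double-negative. Alox15 was at 0.0441, 12.8 and 8.61 TPM in that order, and Cd5l at 0, 1.37 and 1.29 TPM. Within sort 2B, Prg4 (15.9 TPM) and Alox15 (4.19 TPM) were highest in the CX3CR1-GFP library, where Cd5l was lowest. F5, also among the 9, was lowest in that library, at 0.972 TPM against 3.07 for CCR2-RFP and 3.20 for double-negative. The part of cavity macrophages in the Cd5l levels was not tested.

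Cd93 was lowest in CCR2-RFP cells, like Colec12, Msr1, Cd163 and Cd36, but unlike those 4 it was highest in the rare CX3CR1-GFP cells. Its product is a transmembrane lectin-like protein of myeloid and endothelial cells linked to clearance of dying cells and to adhesion. Its CX3CR1-GFP levels in sorts 1, 2A and 2B were 61.4, 55.2 and 65.5 TPM, its double-negative levels 16.1, 25.1 and 12.2 TPM and its CCR2-RFP levels 3.97, 0.968 and 1.53 TPM. No 2 populations overlapped. Within a sort, the CX3CR1-GFP library held 2.20 to 5.37 times the double-negative level. Cd93 was 1.77 higher in CX3CR1-GFP than in double-negative cells (SE 0.337, 95% interval 1.02 to 2.52, adjusted p = 0.0211), 3.41-fold between means. It was 4.40 higher than in CCR2-RFP cells (SE 0.337, adjusted p = 1.40e-05), and in CCR2-RFP against double-negative cells it fell by 2.63 (SE 0.337, adjusted p = 0.000258).

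The Cd93 difference between CX3CR1-GFP and double-negative cells stayed between 1.54 and 2.10 over all alternatives. Leaving out 1 library ended the call for double-negative 1 (adjusted p = 0.0893) and 2B (0.0972) and for CX3CR1-GFP 1 (0.0644), 2A (0.0543) and 2B (0.0595). The call ended as well with a pseudocount of 0.1 (0.0625) and without a filter on low values (0.0901). Since Cd93 is also an endothelial gene, 12 endothelial markers other than Lyve1 were summed. They came to 1.51 to 8.11 TPM in double-negative, 3.28 to 10.2 in CX3CR1-GFP and 1.72 to 4.30 in CCR2-RFP libraries, no single one above 2.13 TPM in any library. Cdh5, which defines endothelium, was 1.24 ± 0.782 TPM in CX3CR1-GFP cells, where Cd93 was 60.7 ± 5.17. The part of endothelial cells in the Cd93 levels was not tested. Lyve1, which resident macrophages also express, stood at 805 ± 78.9 TPM in double-negative, at 637 ± 232 in CX3CR1-GFP and at 501 ± 100 in CCR2-RFP cells.

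**Figure D3:**
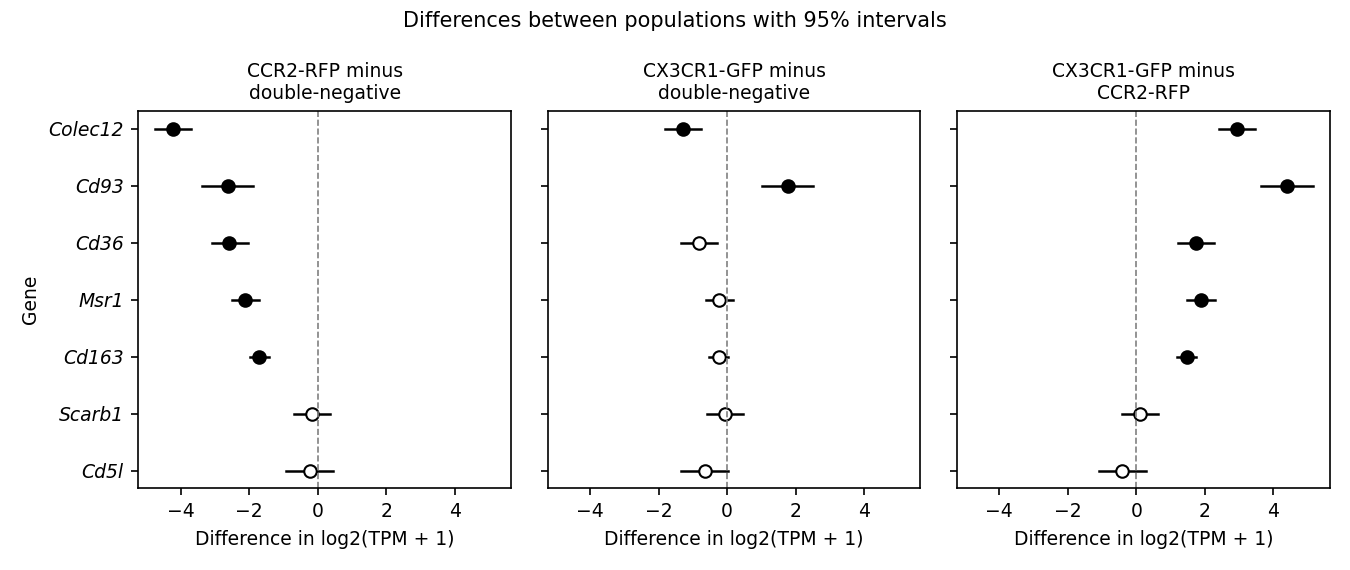
Differences between populations for the 7 members tested, in log2(TPM + 1) on the horizontal axis, 1 panel per comparison, with points for limma estimates and bars for 95% intervals, unadjusted over genes. Filled points are called at adjusted p below 0.05: 5 in each comparison with CCR2-RFP cells, and Colec12 and Cd93 alone, on opposite sides of 0, in CX3CR1-GFP against double-negative cells.

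Of the members called in CCR2-RFP against double-negative cells, the CX3CR1-GFP level lay between for Colec12, Cd36, Cd163 and Msr1. On mean log2(TPM + 1) it stood 69.4% of the way from the CCR2-RFP to the double-negative level for Colec12, 68.1% for Cd36, 85.8% for Cd163 and 89.2% for Msr1. For Cd93 it stood beyond the double-negative level, at 167%. Without overlap between libraries, CCR2-RFP lay below double-negative for 5 members (16.9% of all genes) and CX3CR1-GFP above CCR2-RFP for the same 5 (14.3%). In deposited TPM, CX3CR1-GFP lay below double-negative without overlap for 4 (12.9%) and above it for Cd93 (8.22%). On the same scale, in all 3 sorts the CX3CR1-GFP library was below the double-negative one for Colec12, Cd36, Cd163, Msr1 and Cd5l (21.3% of all genes). It was above for Cd93 (15.9%). Over the 4 scalings the difference between these populations ranged from -0.242 to -0.1 for Cd163 and from -0.227 to -0.112 for Msr1. The order of single libraries under other scalings was not examined, so for genes this close it may depend on scaling.

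General macrophage genes also differed, and their values stand beside the receptors'. Of 8 macrophage markers, 5 were lower (9.88% of all genes), 2 higher (14.9%) and 1 not passed in CCR2-RFP against double-negative cells. In CX3CR1-GFP against double-negative cells, where 2.77% of all genes were called, limma called none of the 8 (2 had an unadjusted p below 0.05). Csf1r, the receptor for the growth factor CSF-1, was 207 ± 29.4 TPM in double-negative, 204 ± 7.38 in CX3CR1-GFP and 63.4 ± 3.77 in CCR2-RFP cells, a difference of -1.68 for the last against the first. That is close to the -1.71 of Cd163 and smaller than the -4.22 of Colec12. The 5 lower markers differed among themselves, from -3.02 for Fcgr1 to -0.90 for Adgre1. Lyz2, a lysozyme gene of monocytes and macrophages, was 1300 ± 189 TPM in double-negative and 2120 ± 272 in CCR2-RFP cells. The part of cell makeup in the receptor differences was not tested.

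Apart from Lyve1, given above, single markers of other cells ranged from 0 to 590 TPM in a library, the highest being the muscle gene Myh4. Of 9 platelet and erythroid markers, Gp9 was at 0 in all libraries and the sum was at most 4.63 TPM. Ppbp, a platelet chemokine gene, was higher in CX3CR1-GFP than in CCR2-RFP cells (2.39 ± 1.85 against 0.322 ± 0.281 TPM, adjusted p = 0.0343). Of 13 lymphocyte and granulocyte markers, Prg2 was at 0 in all libraries and the sum was 8.39 to 42.8 TPM.

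The B cell gene Cd79b was at 2.53 ± 1.05 TPM in CX3CR1-GFP cells against 0.297 ± 0.268 in double-negative (adjusted p = 0.026) and 0.300 ± 0.285 in CCR2-RFP cells (adjusted p = 0.00419). The other B cell genes on the list were lower, Cd79a at most 0.173 TPM and Ms4a1 at most 0.195 TPM in any library. Cd79a was listed at 0 in every CX3CR1-GFP library. The granulocyte gene Mmp9 was at 19.1 ± 8.87 TPM in double-negative cells and lower in CCR2-RFP cells, at 3.97 ± 0.785 (adjusted p = 0.0109). The mast cell genes Mcpt4 and Cpa3 were lower in CX3CR1-GFP than in CCR2-RFP cells, Mcpt4 at 0.448 ± 0.724 against 7.17 ± 7.45 TPM (adjusted p = 0.0214) and Cpa3 at 0.492 ± 0.822 against 4.5 ± 3.95 TPM (adjusted p = 0.048). Fibroblast markers summed to 13.6 to 115 TPM in double-negative, 49.7 to 131 in CX3CR1-GFP and 13.5 to 61.1 in CCR2-RFP libraries, with Col3a1 and Dcn the highest. Dcn was higher in CX3CR1-GFP than in CCR2-RFP cells (29.4 ± 10.9 against 9.88 ± 2.97 TPM, adjusted p = 0.0335). Adipocytes also express Cd36, and their markers summed to 9.88 to 16.5, 9.67 to 84.9 and 1.67 to 57.4 TPM in that order, with Car3 and Cfd the highest, and Adipoq was at most 1.69 TPM. Car3 alone was at 75.8 TPM in CX3CR1-GFP 2A and 52.0 TPM in CCR2-RFP 2A, so it made up most of the highest sums. Of the 8 adipocyte markers, 4 (Plin1, Cidec, Lep and Pck1) stayed below 1 TPM in all 9 libraries. The 8 skeletal muscle markers summed to 255, 363 and 295 TPM in double-negative sorts 1, 2A and 2B, to 279, 1730 and 221 TPM in the CX3CR1-GFP sorts and to 43.6, 1020 and 43.6 TPM in the CCR2-RFP sorts. The CX3CR1-GFP and CCR2-RFP libraries of sort 2A were thus the highest. Car3, counted above as an adipocyte marker, was highest in the same libraries. In sorts 1 and 2B muscle markers were lowest in CCR2-RFP cells, the direction of the 5 receptors. The part of these other cells in the receptor differences was not tested.

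Without the 3 libraries of sort 2A, the 5 members were still called lower in CCR2-RFP against double-negative cells. Cd36 was then at -2.15 (adjusted p = 0.000274). The Cd93 rise in CX3CR1-GFP against double-negative cells was still called (2.10, adjusted p = 0.0326), and the Colec12 fall was not (-1.18, adjusted p = 0.163).

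Of 21 further scavenger receptor genes, 11 passed the filter and the other 10 were at most 0.713 TPM in any library, Scara3, Scara5, Stab2 and Scarf1 among them. In CCR2-RFP against double-negative cells 4 were lower, 2 were higher and 5 did not pass, with a median of -0.33. Of all genes tested, 9.88% were lower and 14.9% higher there, with a median of 0.0858. Stab1 encodes a clearance receptor of resident macrophages and sinus endothelium. Its double-negative levels in sorts 1, 2A and 2B were 90.3, 79.9 and 63.4 TPM, its CX3CR1-GFP levels 84.0, 87.4 and 91.0 TPM and its CCR2-RFP levels 11.5, 3.30 and 5.47 TPM. The CCR2-RFP libraries were low and the other populations overlapped. Stab1 fell by 3.47 in CCR2-RFP against double-negative cells (adjusted p = 3.06e-05).

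Mrc1, the mannose receptor gene, was at 348 ± 16.7 TPM in double-negative, 303 ± 38.8 in CX3CR1-GFP and 114 ± 4.95 in CCR2-RFP libraries, and in the last it fell by 1.60 against the first (adjusted p = 1.67e-05). Scarb2, the lysosomal class B protein, was 28.5 ± 5.48 TPM in double-negative and 15.0 ± 2.47 in CCR2-RFP cells (-0.87, adjusted p = 0.00614, and 0.0526 without sort 2A). Lgals3bp, a secreted protein with a cysteine-rich domain, was 20.6 ± 6.43 against 4.88 ± 0.846 TPM (-1.84, adjusted p = 0.00193). In the other direction, Clec7a, the receptor for fungal glucans, was 20.0 ± 3.71 against 7.52 ± 0.659 TPM (1.29, adjusted p = 0.000724). Cd14, the co-receptor for bacterial lipopolysaccharide, was 121 ± 30.2 against 65.7 ± 4.68 TPM (0.85, adjusted p = 0.0355). The Cd14 call ended under 10 of 20 alternatives (adjusted p up to 0.147), among them the other 3 scalings and leaving out any 1 double-negative library, CCR2-RFP 2A or CCR2-RFP 2B. Cd68, Lrp1, Olr1, Megf11 and Cxcl16 did not pass in that comparison.

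In CX3CR1-GFP against double-negative cells, where 2.77% of all genes were called, 1 gene of these 11 was called. This was Clec7a, at 19.5 ± 3.96 against 7.52 ± 0.659 TPM (1.26, adjusted p = 0.00717). Without the sort 2A libraries that call ended (1.06, adjusted p = 0.0876). In CX3CR1-GFP against CCR2-RFP cells 5 were higher (8.96% of all genes): Stab1, Mrc1, Scarb2, Lgals3bp and Cxcl16. The Lgals3bp call ended under 10 of 20 alternatives (adjusted p up to 0.158), and that of Scarb2 under 4, without CX3CR1-GFP 2A (0.0608), CCR2-RFP 2A (0.062), CCR2-RFP 2B (0.0705) or all of sort 2A (0.166). The Lgals3bp call ended without any 1 CCR2-RFP library (0.106, 0.0839 and 0.0582), CX3CR1-GFP 2A (0.103), CX3CR1-GFP 2B (0.117) or double-negative 1 (0.055). The call of Cxcl16 ended with a pseudocount of 0.1 (0.0748). Cxcl16 encodes a membrane chemokine that binds oxidised lipoprotein. Sorts 1, 2A and 2B gave 3.65, 7.35 and 7.78 TPM for CX3CR1-GFP, 1.93, 2.05 and 0 TPM for double-negative and 0.669, 1.62 and 0.347 TPM for CCR2-RFP cells. It was highest in all 3 CX3CR1-GFP libraries, and its difference from double-negative cells (1.75) did not pass (adjusted p = 0.0788).

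**Figure D4:**
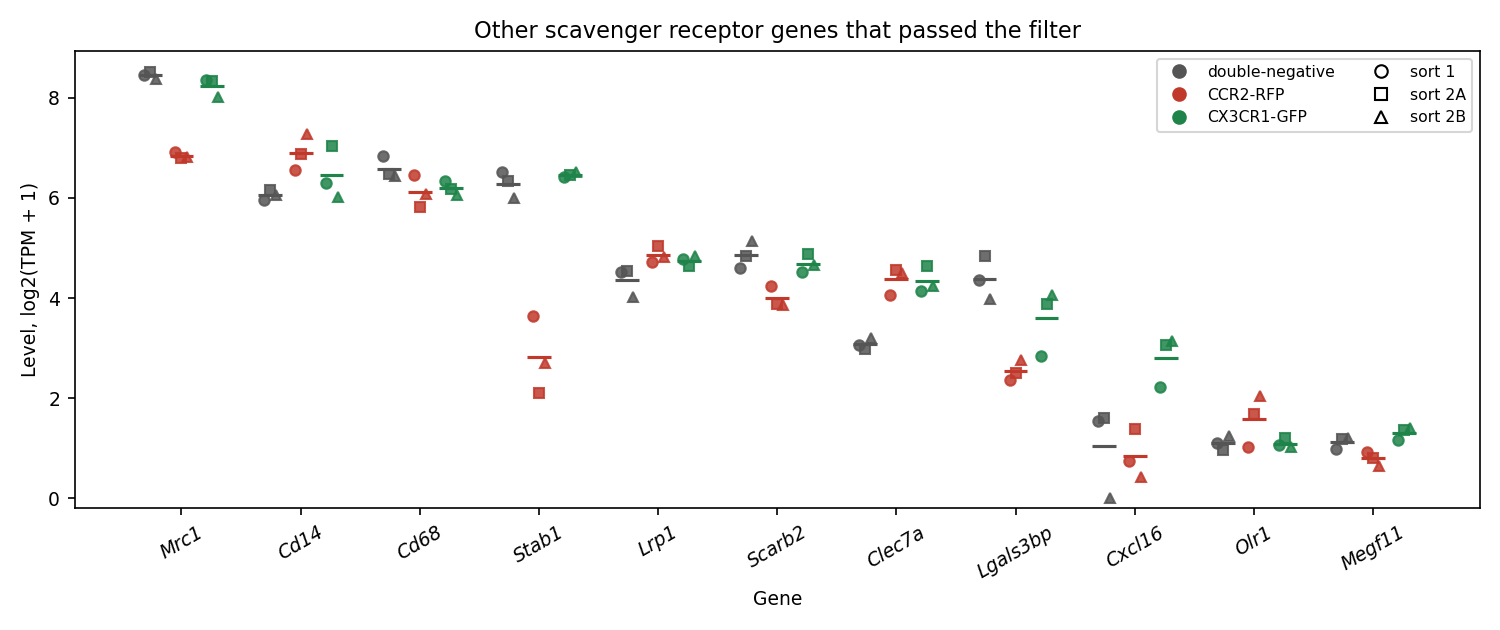
Level of the 11 further scavenger receptor genes that passed the filter, the vertical axis being log2(TPM + 1), with colours for the 3 populations, marker shapes for the 3 sort labels and lines at population means. Mrc1 and Stab1 are lowest in the CCR2-RFP libraries, and Clec7a is lowest in the double-negative ones.

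Of 12 genes of haem and iron uptake, breakdown, storage and export, 7 were lower (9.88% of all genes), none higher and 5 not passed in CCR2-RFP against double-negative cells (median -0.67). Slc40a1, the iron exporter, was 30.5 ± 5.11 TPM in double-negative, 11.8 ± 1.28 in CX3CR1-GFP and 1.16 ± 0.776 in CCR2-RFP cells. Hmox1, which opens the haem ring, was 84.4 ± 9.71, 38.6 ± 1.18 and 32.6 ± 5.83 TPM in that order. Tfrc, the transferrin receptor, was 46.1 ± 4.99, 21.1 ± 1.25 and 8.52 ± 4.69 TPM, and Blvrb, which reduces biliverdin, was 24.5 ± 3.55, 14.0 ± 3.03 and 6.33 ± 2.40 TPM. In CX3CR1-GFP against double-negative cells 3 of the 12 were lower (1.61% of all genes): Slc40a1 (-1.29, adjusted p = 0.0289), Hmox1 (-1.10, adjusted p = 0.00471) and the ferritin gene Ftl1 (-0.63, adjusted p = 0.0381). Cd163 itself was not called there.

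Of 18 lipid handling genes, 4 were higher, 2 lower and 12 not passed in CCR2-RFP against double-negative cells (median -0.08), shares near those of all genes (14.9% higher and 9.88% lower). Lpl, lipoprotein lipase, was 325 ± 11.4 TPM in CCR2-RFP and 23.4 ± 5.77 in double-negative cells, and the cholesterol exporter Abcg1 was 7.12 ± 1.56 against 0.742 ± 0.167 TPM. The exporter Abca1 was 3.56 ± 0.386 against 17.9 ± 1.51 TPM, and the lipid carrier Apoe was 295 ± 73.7 against 1490 ± 36.2 TPM. In CX3CR1-GFP against double-negative cells limma called none of the 18 (4 had an unadjusted p below 0.05), Abca1 being 14.2 ± 1.69 TPM and Apoe 1410 ± 222 TPM in CX3CR1-GFP cells. Pparg, a regulator of Cd36 in macrophages, was 2.65 ± 0.0370 TPM in CCR2-RFP against 0.706 ± 0.627 in double-negative cells (1.16, adjusted p = 0.0262). Cd36 ran the other way between those populations.

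Receptor partners and proteases gave 5 of 13 higher (14.9% of all genes), 1 lower (9.88%) and 7 not passed in CCR2-RFP against double-negative cells (median 0.33). Cd9, a tetraspanin found with Cd36, was 12.3 ± 2.25 TPM in CCR2-RFP, 6.71 ± 0.830 in CX3CR1-GFP and 3.08 ± 0.577 in double-negative cells. The kinase gene Fyn was 4.42 ± 1.43, 2.14 ± 0.996 and 0.429 ± 0.200 TPM, and the protease gene Furin was 13.3 ± 2.94, 4.58 ± 0.248 and 3.87 ± 0.839 TPM in that order. Tlr4, the lipopolysaccharide receptor, was the lower one, at 7.81 ± 0.813, 11.8 ± 0.578 and 15.8 ± 0.546 TPM.

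Among macrophage transcription factors, 5 of 12 were higher (14.9% of all genes), 5 lower (9.88%) and 2 not passed in CCR2-RFP against double-negative cells. In CX3CR1-GFP against double-negative cells, where 2.77% of all genes were called, limma called none of the 12 (4 had an unadjusted p below 0.05). Maf was 165 ± 13.7 TPM in double-negative, 167 ± 19.4 in CX3CR1-GFP and 31.2 ± 6.14 in CCR2-RFP cells. Spic, the factor of iron-recycling macrophages, was 3.02 ± 0.635, 4.84 ± 1.38 and 0.163 ± 0.0663 TPM. Bhlhe40 ran the other way, at 1.14 ± 0.504, 2.98 ± 0.961 and 18.9 ± 1.72 TPM. Nr1h3, the lipid-sensing receptor known to drive Cd5l, was at most 0.629 TPM in any library.

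The C1q chains and the ficolin gene Fcna, soluble pattern recognition proteins with collagen-like stalks, were the 4 of 7 on their list that fell in CCR2-RFP against double-negative cells, where Calr was higher and 2 did not pass. Of all genes tested, 9.88% were lower and 14.9% higher in this comparison. C1qc was 336 ± 15.5 TPM in double-negative, 223 ± 23.8 in CX3CR1-GFP and 74.4 ± 5.76 in CCR2-RFP cells, C1qb was 270 ± 1.12, 183 ± 6.68 and 110 ± 5.69 TPM, and C1qa was 144 ± 7.90, 119 ± 12.9 and 41.0 ± 2.68 TPM. Fcna was 73.4 ± 8.06 TPM in double-negative but 7.70 ± 1.77 in CX3CR1-GFP and 14.1 ± 6.77 in CCR2-RFP cells. Thbd, a relative of Cd93 in the same lectin group, was 2.49 ± 1.40, 0.595 ± 1.03 and 0.811 ± 1.19 TPM in double-negative, CX3CR1-GFP and CCR2-RFP cells and did not pass in any comparison. Clec14a and Cd248, the other relatives, were at most 0.0867 and 0.4 TPM.

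Likeness of pattern was measured by Pearson r of log2(TPM + 1) over the 9 libraries, which share 3 populations and 3 sorts, among 2991 genes reaching 10 TPM in some population. Colec12 was most like Etv1 (r = 0.994), C1qc (0.991) and Gas6 (0.99), and Cd36 most like Ctsc (0.986), Tlr4 (0.984) and C1qc (0.983). Msr1 was most like Trf (0.991), Cd163 (0.987) and Pla2g7 (0.986). Cd163 was most like Tmod1 (0.991), Abca1 (0.989) and Dab2 (0.987). Cd93 was most like Lair1 (0.981), Gpr183 (0.973) and Nfxl1 (0.962), and Lair1 was at 27.5 ± 2.20 TPM in CX3CR1-GFP, 11.6 ± 1.51 in double-negative and 1.52 ± 0.555 in CCR2-RFP cells. The low genes had lower values: Scarb1 with Zmiz1 (0.878), Bod1l (0.873) and Zfp91 (0.865), and Cd5l with Serpinb2 (0.911), Vps35 (0.905) and Atf7ip (0.888). Among members, r was 0.9 to 0.987 for the pairs of Colec12, Msr1, Cd163 and Cd36, and 0.739 to 0.828 for Cd93 with each of them.

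By position in GRCm38 (GENCODE M21), Cd36 spans chromosome 5, 17781690 to 17888801, and Scarb1 the same chromosome, 125277087 to 125341094, both on the minus strand. Msr1 lies on chromosome 8, 39581685 to 39642673 (minus), Marco on chromosome 1, 120474538 to 120505024 (minus), and Cd163 on chromosome 6, 124304656 to 124330527 (plus). Cd5l is on chromosome 3, 87357881 to 87371073 (plus), and Cd93 on chromosome 2, 148436640 to 148443563 (minus). Scarb1 is overlapped by Gm42633 on its own strand, and the other 5 placed here, beside Cd36, share their span with no annotated gene. Cd93 has 1 annotated transcript of 2 exons, and Cd163 has up to 17 exons.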

How the data were processed

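RNA was measured in 9 libraries of sorted mouse peritoneal wall phagocytes, 3 populations with 3 libraries each. Per the labels, cells were sorted into TRIzol after 20 minutes of digestion, and libraries were made from 1 ng of RNA and read as pairs of 75 bases. The authors deposited TPM per gene symbol. Per the submitters' processing notes, the tools were Salmon 0.11.3, cutadapt 1.8.3 and bcl2fastq 2.18, and the build was mm10. How transcripts were summed, the strand setting and the annotation are not given in the sources used.

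Deposited TPM was taken to log2(TPM + 1), and the 10136 of 28764 symbols reaching 1 TPM in 3 or more libraries entered 1 linear model with a mean per population and a variance trend (limma 3.58.1, R 4.3.3). Each of the 3 contrasts had a two-sided test, p-values were adjusted over the 10136 genes by Benjamini and Hochberg's method, and a gene was called below 0.05. The script was tested on simulated data. The sort labels were read as the 3 animals the design names, so same-numbered libraries form pairs. Their deviations from population means correlated at 0.0315 to 0.205, against -0.16 to 0.112 between populations for libraries of different sorts. The main model held no sort term.

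The members, lists and rules were chosen with earlier results of these data known. Named genes were the members, tested further scavenger receptors, up to 4 called genes per pathway list by F-test p (1 is not reported here), and the 3 most alike genes per member. Ftl1, Pparg, Nr1h3, Calr, Thbd, Clec14a, Cd248, Csf1r, Fcgr1, Adgre1, Lyz2 and all markers of other cells (such as Gata6, Timd4, F5, Cdh5, Lyve1, Gp9, Prg2, Ppbp, Cd79b, Cd79a, Ms4a1, Mmp9, Mcpt4, Cpa3, Myh4, Col3a1, Dcn, Adipoq, Car3 and Cfd) were named outside this rule, after their values were seen. Alternatives changed the pseudocount (0.1, 5), the filter (none, 5 TPM), scaling, block, variance trend, populations fitted and libraries, and leaving out sort 2A was added after seeing the data. Libraries left out or fitted in pairs kept the same 10136 genes. Of the symbols, 85.9% are in GENCODE M21. Promoter windows are from RefSeq (GRCm38.p6).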

Additional observations from a re-analysis of the deposited data

How the results depend on the processing

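In CCR2-RFP against double-negative and in CX3CR1-GFP against CCR2-RFP cells, 5 members were called under all 20 alternatives, each of which also kept the direction of Colec12, Msr1, Cd163, Cd36 and Cd93. The comparison of CX3CR1-GFP with double-negative cells was less stable. Its 2 member calls became 1 with a pseudocount of 0.1, 0 without a filter and 1 without sort 2A, and leaving out 1 library gave 0 to 3. Its calls over all genes, 281, became 146 without a filter and 93 without sort 2A, and leaving out 1 library gave 132 to 257. Its 1 call among further scavenger receptors became 2 with a pseudocount of 5 and 0 without sort 2A. In CX3CR1-GFP against CCR2-RFP cells the 5 calls among further receptors became 3 without sort 2A, and leaving out 1 library gave 3 to 5. With the sort label as a replicate block the members called were 5, 2 and 5, and no member call changed. The cause of these changes was not tested.

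Differences of low genes that were never called changed sign. Cd5l in CCR2-RFP against double-negative cells ranged from -0.46 to 0.0604 on leaving out 1 library, and in CX3CR1-GFP against CCR2-RFP cells it was 0.00872 without sort 2A. Scarb1 in CX3CR1-GFP against double-negative cells was 0.00189 with TPM rescaled without mitochondrial, ribosomal and Siglece rows and 0.0937 without sort 2A, and ranged from -0.187 to 0.114 on leaving out 1 library. In CX3CR1-GFP against CCR2-RFP cells it ranged from -0.0121 to 0.29. With a filter at 5 TPM, Scarb1 and Cd5l were not tested. Depth is unknown, so whether Marco and Cd5l were sampled well enough to compare cannot be said.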

Other observations

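Only 9 of 10136 genes (0.0888%) had the order of Cd93, called higher in CX3CR1-GFP than in double-negative cells and called lower in CCR2-RFP cells than in both others. This order was read off Cd93 itself. The other 8 were Cd300c2, Cdk6, Ildr2, Itgb5, Lair1, Lilra5, Lpar6 and Tlr13. Lilra5, an immune receptor gene, was 17.4 ± 4.23 TPM in CX3CR1-GFP, 2.06 ± 0.327 in double-negative and 0.0473 ± 0.0575 in CCR2-RFP cells. Itgb5, an integrin chain gene, was 9.21 ± 2.29, 1.93 ± 0.123 and 0.236 ± 0.157 TPM in that order, and Tlr13, a sensor of bacterial RNA, was 9.63 ± 1.24, 4.09 ± 0.651 and 0.866 ± 0.228 TPM. The opposite order for CX3CR1-GFP cells, that of Colec12, with double-negative highest and CCR2-RFP lowest and all 3 differences called, was found for 31 genes (0.306%). It was likewise read off Colec12 itself.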
